A study of Mus musculus with 80 samples.

Results

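Cytosines that lie under an adenine base editor were followed at 7 splice sites of mouse Ptbp1, the gene of an RNA-binding splicing repressor. The members are the alleles in which a reference cytosine of the 20-base protospacer was read as T, G or A. There were 1314 such alleles among the 11389 listed for 80 amplicon libraries, and they held 2246 of 343154 reads (0.655%). Of these reads, 2133 carried 1 changed cytosine, 73 carried 2 and 40 carried 3 or more, and 48 also had a gap in the protospacer.

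All libraries came from Hepa1-6, a hepatoma line of a C57L mouse, transfected with a cationic lipid. Each of sgRNA1, 2, 3, 5, 6, 7 and 9 was delivered with SpG-ABEmax or SpG-ABE8e, and sgRNA1, 6 and 7 also with SpCas-ABEmax or SpCas-ABE8e, which gives 20 edited groups of 3 samples. Every sgRNA had its own control group of 3 samples (2 for sgRNA6). Control cells received the sgRNA and no editor, as the figure legends of the study state. Libraries held 399 to 18227 reads, so that a single read stood for 0.00549% to 0.251% of a library.

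Adenine base editors join a Cas9 nickase to an evolved tRNA adenosine deaminase, TadA, which acts on the strand displaced by the guide and turns A into inosine, read as G. SpCas needs an NGG motif beside the protospacer, and SpG accepts NGN. ABE8e carries a faster deaminase than ABEmax. TadA-derived deaminases are also known to act weakly on cytosines of the same stretch, mostly where T precedes the cytosine. The uracil that results is read as T, or as G or A after excision and error-prone repair.

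The 7 protospacers are printed because all positions below refer to them. They are given 5′ to 3′ from the PAM-distal end, position 1 first, with every reference cytosine in capitals.
sgRNA1: aCttaCCCgtCCatggCaCa
sgRNA2: ttCtCagCggggatCCgaCg
sgRNA3: CttaCCtgCtgaggCagagC
sgRNA5: CCCaCagtCCCtggatggCC
sgRNA6: CttaCCaaaggCtgCtgCCa
sgRNA7: aataCCtgCggCCtgaggga
sgRNA9: aCataCCtCagggttCagat

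The sites lie on chromosome 10 of GRCm39, to which the protospacers were matched here, within Ptbp1 (ENSMUSG00000006498.18), which is read from the plus strand. sgRNA1 spans chr10:79690542-79690561 on the minus strand at the donor of exon 1, with the target adenine at position 5. sgRNA2 spans chr10:79694579-79694598 on the plus strand at the acceptor of exon 3, with the target at position 6. sgRNA3 spans chr10:79694644-79694663 on the minus strand at the donor of exon 3, with the target at position 4. sgRNA5 spans chr10:79695608-79695627 on the plus strand at the acceptor of exon 7, with the target at position 6. sgRNA6 spans chr10:79695775-79695794 and sgRNA7 chr10:79696014-79696033, both on the minus strand with the target at position 4, at the donors of exons 7 and 8. sgRNA9 spans chr10:79696790-79696809 on the minus strand at the donor of exon 9, with the target at position 5.

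These protospacers hold 46 cytosines, 31 in exons and 15 in introns. T precedes 9 of them, A precedes 10, C precedes 16 and G precedes 11. Positions 3 to 9 hold 20 cytosines, 4 of them preceded by T. At all 5 donors the target adenine, opposite intron base 2, is followed by the same pair of cytosines. The nearer one lies opposite the first base of the intron, and the next one opposite the last base of the exon. With 3 possible products, 138 cytosine changes were possible, and 5 of them had no read in any sample.

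The strongest increase over controls was C-to-T at C6 of sgRNA7, the last base of exon 8, and it was a change of the ABE8e groups. With SpCas-ABE8e it was read in 67 of 6649, 77 of 6247 and 91 of 7263 reads. These shares were 1.01%, 1.23% and 1.25%, with 95% Wilson intervals of 0.794% to 1.28%, 0.987% to 1.54% and 1.02% to 1.54%. With SpG-ABE8e the shares were 0.748%, 0.802% and 0.609%. With SpCas-ABEmax they were 0.0712%, 0.184% and 0.215%, and with SpG-ABEmax 0.0280%, 0.126% and 0, where 0 of 2730 reads allows up to 0.110%. In the controls 1 of 3036, 0 of 2313 and 2 of 2826 reads carried it. The ABE8e samples thus lay apart from all ABEmax and control samples of sgRNA7, and every SpCas-ABEmax sample lay above the highest control by a small margin, 0.0712% against 0.0708%.

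Group means of C6T were 1.16 ± 0.136% with SpCas-ABE8e, 0.720 ± 0.0992% with SpG-ABE8e, 0.157 ± 0.0757% with SpCas-ABEmax, 0.0515 ± 0.0664% with SpG-ABEmax and 0.0346 ± 0.0354% in controls (SD, n = 3 each). Against controls, edgeR's quasi-likelihood test with Benjamini-Hochberg adjustment gave adjusted p = 1.05e-21 for SpCas-ABE8e, 3.57e-10 for SpG-ABE8e and 0.0465 for SpCas-ABEmax. The mean with ABE8e was 7.43 times that with ABEmax for SpCas (edgeR adjusted p = 8.94e-26) and 14.0 times for SpG (edgeR adjusted p = 4.40e-10). The ABE8e calls held under all 8 alternatives tried, and the SpCas-ABEmax call was lost in 6 of 8. C6T turns a glycine codon into a serine codon (G323S) if the exon boundary is kept. The codon changes named below hold under the same condition, and transcripts were not part of these data.

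C6G and C5T were also higher with ABE8e than with ABEmax at exon 8, under both Cas9 variants. C6G (G323R) was read in 0.361%, 0.304% and 0.413% of reads with SpCas-ABE8e, against 0, 0 and 0.0354% in controls. Its mean was 0.359 ± 0.0545% with SpCas-ABE8e and 0.281 ± 0.198% with SpG-ABE8e (SD, n = 3 each), and both were called higher than controls (edgeR adjusted p = 2.53e-07 and 0.000192, the second lost in 1 of 8 alternatives). SpG-ABE8e samples ranged widely, from 0.0762% to 0.472%. With SpCas-ABEmax C6G averaged 0.111 ± 0.0717%, and its call (edgeR adjusted p = 0.0474) was lost in 6 of 8 alternatives, while 1 of its samples, at 0.0283%, lay within the control range.

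C5, opposite the first intron base, changed less often than C6. C5T was read in 0.376%, 0.288% and 0.399% of reads with SpCas-ABE8e and averaged 0.354 ± 0.0586%, against 0.0236 ± 0.0409% in controls (edgeR adjusted p = 2.34e-06). With SpG-ABE8e it averaged 0.159 ± 0.0371%, with every sample above every control but an edgeR adjusted p of 0.0503. C5T was higher with ABE8e than with ABEmax under both Cas9 variants (edgeR adjusted p = 9.20e-11 for SpCas and 0.00154 for SpG). Of these contrasts of the deaminases, that of C5T with SpG was lost in 1 of 8 alternatives and those of C6G in 2 with SpCas and 4 with SpG. C5G reached 0.127 ± 0.0409% with SpCas-ABE8e (edgeR adjusted p = 0.0179), a call lost in 3 of 8 alternatives. C5A did not stand above controls, at 0.0552 ± 0.0122% with SpCas-ABE8e, 0 with SpG-ABE8e and 0.0516 ± 0.0302% in controls (edgeR adjusted p = 0.965 and 0.157).

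The read-level link to adenine editing is shown by the most frequent exon 8 alleles, in which capitals mark the changed bases.
A4G with C6T: aatGcTtgcggcctgaggga
A4G with C6G: aatGcGtgcggcctgaggga
A4G with C5T: aatGTctgcggcctgaggga
A4G with C5G: aatGGctgcggcctgaggga
The A4G C6T allele held 215 reads with SpCas-ABE8e, 48 with SpG-ABE8e, 29 with SpCas-ABEmax and 4 with SpG-ABEmax. The C6G, C5T and C5G alleles with A4G held 104, 81 and 29 edited reads. No control read carried any of the 4 alleles. With SpCas-ABE8e all 235 reads with C6T, all 73 with C6G and all 72 with C5T were among the 17895 reads that carried A4G, and none was among the 2264 reads that did not. On A4G reads C6T thus stood at 1.31%. With SpG-ABE8e 53 of the 54 C6T reads carried A4G, and with SpCas-ABEmax 30 of 32. A4G itself was on 1697 of 2541, 1586 of 2370 and 1814 of 2626 reads of the SpG-ABE8e libraries. In the SpCas-ABEmax libraries it was on 4435 of 5620, 5332 of 7061 and 5243 of 6981 reads.

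The donor of exon 3, sgRNA3, had the next highest ABE8e values. C6T, at the last base of exon 3 (A38T), was read in 0.375%, 0.386% and 0.175% of reads with SpG-ABE8e and in 0.0963%, 0.111% and 0.0728% with SpG-ABEmax. No control read carried it, in libraries of 4508, 399 and 4753 reads, which allows up to 0.0665%, 0.752% and 0.0631%. The limit of the second library, with 399 reads, lies above all the edited values. The means were 0.312 ± 0.119% and 0.0934 ± 0.0192% (SD, n = 3 each), both called higher than controls (edgeR adjusted p = 3.48e-06 and 0.0161) and higher with ABE8e than with ABEmax (edgeR adjusted p = 0.00152).

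C6G of sgRNA3 (A38P) averaged 0.122 ± 0.0234% with SpG-ABE8e and 0.0801 ± 0.0197% with SpG-ABEmax, against 0 control reads (edgeR adjusted p = 0.00220 and 0.0172). The 2 calls of SpG-ABE8e against controls held under all 8 alternatives, and the 2 of SpG-ABEmax and the contrast of the deaminases were each lost in 4.

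ABE8e and ABEmax differed at this donor in the reads that carried the change.
ABE8e, A4G with C6T: cttGcTtgctgaggcagagc
ABE8e, A4G with C6G: cttGcGtgctgaggcagagc
ABEmax, C6G alone: cttacGtgctgaggcagagc
With SpG-ABE8e all 67 C6T reads and 25 of 26 C6G reads carried A4G, which was on 19472 of 20979 reads. With SpG-ABEmax 6 of 17 C6T reads and 1 of 15 C6G reads carried it, although it was on 13159 of 18364 reads. As a share of reads, C6G with SpG-ABEmax was 0.00760% of reads with A4G and 0.269% of reads without it. The allele with A4G and C6T held 62 reads with SpG-ABE8e and 6 with SpG-ABEmax, and the allele with C6G alone held 1 and 13. This difference in linkage of single changes was not tested.

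At the donor of exon 7, sgRNA6, the C6 and C5 changes were not called higher than controls in any edited group. The allele of A4G, C6T and A7G is shown because it made up most C6T reads of SpCas-ABE8e, and the alleles of C6T or C6G alone because most of their reads came from the ABEmax groups.
A4G, C6T and A7G: cttGcTGaaggctgctgcca
C6T alone: cttacTaaaggctgctgcca
C6G alone: cttacGaaaggctgctgcca
The first allele held 40 reads with SpCas-ABE8e, 3 with SpG-ABE8e and 3 with the ABEmax editors together (2 and 1). C6T alone held 0 reads with either ABE8e editor, 10 with SpCas-ABEmax, 6 with SpG-ABEmax and 2 in controls. C6G alone held 12 reads with SpCas-ABEmax, 1 with each SpG editor and 0 with SpCas-ABE8e and in controls. With SpCas-ABEmax 8 of 23 C6T reads carried A4G, which was on 7520 of 21388 reads, while 2 of 15 C6G reads did. With SpCas-ABE8e 46 of 49 C6T reads carried it, against 29443 of 35556 reads in all. C6T (G297S) averaged 0.124 ± 0.0454% with SpCas-ABE8e, 0.105 ± 0.0287% with SpCas-ABEmax, 0.0795 ± 0.0488% with SpG-ABE8e and 0.0962 ± 0.0477% with SpG-ABEmax (SD, n = 3 each), against 0.0977 ± 0.0690% in the 2 controls. The groups overlapped, and edgeR adjusted p ranged from 0.678 to 0.982.

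At the donor of exon 1, sgRNA1, the order of the deaminases was opposite with SpCas. C7T, at the last base of exon 1 (G3D), was read with SpCas-ABEmax in 17 of 3038, 4 of 599 and 6 of 1185 reads, or 0.560%, 0.668% and 0.506%. With SpCas-ABE8e it was read in 0 of 1415, 0 of 1880 and 2 of 3644 reads. Both SpG editors together gave 2 reads, 1 in each group, and the controls gave 0.115%, 0.0499% and 0.198%. All SpCas-ABEmax samples lay above all other samples of this sgRNA.

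The SpCas-ABEmax mean of C7T was 0.578 ± 0.0823%, against 0.121 ± 0.0742% in controls (edgeR adjusted p = 0.0270) and 0.0183 ± 0.0317% with SpCas-ABE8e (edgeR adjusted p = 0.000288; SD, n = 3 each). These calls were lost in 4 and 2 of 8 alternatives. Of the 27 C7T reads with SpCas-ABEmax, 24 carried A5G, which was on 1742 of 4822 reads. The neighbouring C6T averaged 0.266 ± 0.0865% with SpCas-ABEmax and 0.0989 ± 0.0433% in controls, with every edited sample above every control and an edgeR adjusted p of 0.296. The allele that carried A5G and C7T held 24 reads with SpCas-ABEmax, 1 with SpG-ABE8e and 0 elsewhere.
A5G with C7T: acttGcTcgtccatggcaca

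At the donor of exon 9, sgRNA9, 3 different cytosines were called. C7T, which is synonymous at the last base of exon 9, averaged 0.133 ± 0.0650% with SpG-ABE8e, from 11 of 5339, 5 of 6062 and 6 of 5482 reads. It stood at 0.00778 ± 0.0135% in controls (edgeR adjusted p = 0.0105; SD, n = 3 each), and the call was lost in 1 of 8 alternatives. With SpG-ABEmax C7T was not called, at 0.0611%, 0.0409% and 0.0261%, each above the highest control, 0.0233%. A5G was on 3973 of 5339, 4319 of 6062 and 4014 of 5482 reads with SpG-ABE8e, and all 22 C7T reads of this group carried it. The allele with A5G and C7T and the one with A3G added held 8 and 11 of these reads.
A5G with C7T: acatGcTtcagggttcagat
A3G and A5G with C7T: acGtGcTtcagggttcagat

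The other 2 cytosines of sgRNA9 that were called higher changed to A and are preceded by T. C9A, a nonsense change (E371*), averaged 0.141 ± 0.0363% with SpG-ABE8e and 0.175 ± 0.0433% with SpG-ABEmax, against 0.0176 ± 0.0305% in controls (edgeR adjusted p = 0.0466 and 0.0246; SD, n = 3 each). C16A, synonymous, averaged 0.108 ± 0.0402% with SpG-ABE8e and 0.0119 ± 0.0103% in controls (edgeR adjusted p = 0.0391). These calls were lost in 6, 3 and 7 of 8 alternatives. With SpG-ABEmax C16A was not called, at 0.0407%, 0.0818% and 0.105%, each above the highest control, 0.0180%. C9A was on both kinds of read, 20 reads with A5G and 4 without it for SpG-ABE8e and 12 of each for SpG-ABEmax. A5G itself was on 3973 of 5339, 4319 of 6062 and 4014 of 5482 reads with SpG-ABE8e. With SpG-ABEmax it was on 2991 of 4910, 2710 of 4890 and 2184 of 3826 reads. Of the C16A reads with SpG-ABE8e, 4 of 6, 3 of 4 and 4 of 8 carried A5G. The linkage of C9A and C16A to A5G was not tested. G-to-T, the same change on the other strand, was also more frequent in the edited groups of sgRNA9. Summed over the protospacer, it averaged 0.118% with SpG-ABE8e, 0.161% with SpG-ABEmax and 0.0551% in controls. This was not tested for sgRNA9 alone.

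At the acceptors hardly any cytosine change had enough reads for a test. No change of sgRNA2 reached the minimum of 10 reads, the most being 9 for C5T, and only C9T and C20T of sgRNA5 did, neither of which was called (edgeR adjusted p from 0.308 to 0.835). For sgRNA2 the highest mean in an edited group was C5T, 0.0748 ± 0.130% with SpG-ABE8e (SD, n = 3), and this came from 5 reads of a single library of 2228 reads. With SpG-ABEmax C5T was read in 2, 1 and 1 reads, and in none of 7488 control reads, which allows up to 0.0401%. For sgRNA5 the highest edited mean was C2A, 0.0322 ± 0.0293% with SpG-ABE8e, and the highest control mean was C9T, 0.0389 ± 0.0109%.

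In 6 of the 7 sgRNAs, 58 cytosine changes with at least 10 reads in all libraries of an sgRNA were tested, in 192 comparisons of an edited group with its controls. edgeR called 17 higher, which is 8.85% of these comparisons. Among all substitutions of the 40-base windows 10.5% were called higher, and 4.95% among those that were neither A-to-G nor a protospacer cytosine change. Of the 17, 12 were at the last exon base of a donor and 2 opposite the first intron base, from 82 comparisons made at this pair. The other 3 were C9A and C16A of sgRNA9, from 110 comparisons made elsewhere. sgRNA7 gave 8 of the 17, sgRNA3 and sgRNA9 4 each and sgRNA1 1. By product 8 were to T, 6 to G and 3 to A.

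By preceding base, 12 of 70 comparisons were called higher after C, 3 of 14 after T, 2 of 48 after A and 0 of 60 after G. The last exon base is preceded by C at all 5 donors, and its 44 comparisons held all 12 calls. The other 26 comparisons of cytosines after C, from sgRNA5, sgRNA6 and sgRNA7, held 0 calls. T-preceded cytosines at positions 3 to 9 are C3 and C5 of sgRNA2, C9 of sgRNA5 and C9 of sgRNA9. Of these, C3T of sgRNA2 was read once with each SpG editor, and C9T of sgRNA5 stood at 0.0214 ± 0.0257% with SpG-ABE8e, below its control mean. C5T of sgRNA2, too rare to be tested, had 5 reads in 1 SpG-ABE8e library. It had 2, 1 and 1 reads with SpG-ABEmax and 0 in controls. Among the changes of these 4 cytosines only C9A of sgRNA9 was called higher, with both SpG editors. C9T of sgRNA9 averaged 0.0226 ± 0.0250% with SpG-ABE8e, 0.0408 ± 0.0409% with SpG-ABEmax and 0.0239 ± 0.0275% in controls (SD, n = 3 each).

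Summed over the cytosines of a protospacer, the share of reads with a C-to-T change ranged from 0 to 1.79% in edited samples, with a median of 0.212%, and from 0 to 0.439% in controls, with a median of 0.111%. The edited mean was higher by 0.147 percentage points, as a mean over the 7 sgRNAs (two-sided test with labels permuted inside each sgRNA, permutation p = 0.0247, adjusted p = 0.0411 over the 15 tests of this kind). It was higher in 5 sgRNAs and lower in sgRNA5 and sgRNA6. Without sgRNA7 the difference was 0.0779 points (permutation p = 0.0606), and after adjustment the call was also lost without sgRNA1, sgRNA2, sgRNA3 or sgRNA9 and without any replicate number. G-to-A, which is C-to-T of the other strand, differed by 0.0152 points (permutation p = 0.282). The excess of C-to-T over G-to-A had a permutation p of 0.0544.

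C-to-G had a median of 0.139% in edited samples and 0.0202% in controls. With the edited samples of each sgRNA pooled, it was higher than in controls for all 7 sgRNAs. The mean difference was 0.103 points (permutation p = 0.000100, adjusted p = 0.000413). Only the alternative that kept alleles of at least 0.2% lost this call. Single groups did not all lie above their controls. With SpG-ABE8e C-to-G averaged 0 for sgRNA2 and 0.0250% for sgRNA5, against 0.0114% and 0.0264% in their controls. G-to-C also rose, by 0.0284 points (permutation p = 0.0109), and the excess of C-to-G over G-to-C was 0.0749 points (permutation p = 0.00524).

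C-to-A was lower in edited samples than in controls for sgRNA6 and sgRNA7. In the controls of sgRNA7 C13A was read in 1.91%, 1.43% and 1.27% of reads, and in no edited library in more than 0.0844%. In the controls of sgRNA6 C15A was read in 0.732% and 0.758%, and in no edited library in more than 0.0549%. C12A averaged 0.381 ± 0.0481% in the controls of sgRNA7 and 0.159 ± 0.0175% in those of sgRNA6. G-to-T, which is C-to-A of the other strand, ran the reverse way for sgRNA7, from 0 to 0.0659% in the controls and from 0.344% to 0.533% in the edited libraries. The background of these control libraries and the absence of an editor cannot be told apart.

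edgeR called 25 changes lower in an edited group than in controls, 13.0% of the 192 comparisons, against 5.45% of all window substitutions and 4.55% of those that were neither A-to-G nor protospacer cytosine changes. All 25 belonged to sgRNA6 (10) and sgRNA7 (15), and 21 were C-to-A. Over the 7 sgRNAs C-to-A was lower by 0.348 points in edited samples (permutation p = 0.000340, adjusted p = 0.00102). Without sgRNA6 and sgRNA7, an alternative chosen after seeing the data, it was higher by 0.107 points (permutation p = 0.000530). G-to-T was higher by 0.0386 points in the same 5 sgRNAs (permutation p = 0.0614), and the excess of C-to-A over it was 0.0685 points (permutation p = 0.0335). The share of reads with any cytosine change differed by -0.0959 points with all sgRNAs (permutation p = 0.384) and by 0.284 points without these 2 (permutation p = 6.0e-05).

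Per cytosine, the excess of positions 3 to 9 over the other positions was 0.228 points larger in edited samples than in controls (permutation p = 1.0e-05, the smallest that 100000 resamples can give; adjusted p = 0.000150). The difference was 1.17 points for sgRNA7 and 0.229 for sgRNA6, whose controls carry most of their C-to-A at positions 12 to 19, and lay between -0.0106 and 0.118 points for the others. Without these 2 sgRNAs it was 0.0398 points (permutation p = 0.0803). T-preceded cytosines did not stand apart from the others by this measure (0.0158 points, permutation p = 0.422, 6 sgRNAs), and the sign turned without sgRNA6.

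Between deaminases, edgeR made 96 comparisons of cytosine changes. It called 7 higher with ABE8e (7.29%, against 5.36% of all window substitutions and 0.267% of those that were neither A-to-G nor protospacer cytosine changes) and 1 lower (1.04%, against 0.555% and 0.0%). The 7 were C5T, C6G and C6T of sgRNA7 with both Cas9 variants and C6T of sgRNA3, and the 1 was C7T of sgRNA1 with SpCas. Summed C-to-T was higher with ABE8e by 0.190 points (permutation p = 0.0199, adjusted p = 0.0372), in 7 of 10 pairs of groups. This rested on sgRNA7, where the difference was 1.36 points with SpCas and 0.927 with SpG. Without sgRNA7 it was -0.0485 points (permutation p = 0.246). C-to-G differed by 0.0428 points (permutation p = 0.164) and C-to-A by 0.0568 points (permutation p = 0.00729, adjusted p = 0.0182), the latter lost without sgRNA1, sgRNA2 or sgRNA9 and without replicates 1 or 3. These are shares of all reads, and target editing was not held equal between the deaminases.

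Between Cas9 variants, sgRNA1, 6 and 7 could be compared. C-to-T was higher with SpCas by 0.270 points (permutation p = 0.000110, adjusted p = 0.000413), in all 6 pairs of groups, from 0.00856 points for sgRNA6 with ABE8e to 0.700 for sgRNA1 with ABEmax and 0.638 for sgRNA7 with ABE8e. Without sgRNA7 the difference was 0.195 points (permutation p = 0.0172, adjusted p = 0.0516). C-to-G differed by 0.0797 points (permutation p = 0.0378, adjusted p = 0.0567) and C-to-A by 0.0463 points (permutation p = 0.105). All these are shares of all reads, and target editing was not held equal between the variants. For sgRNA7 with SpCas-ABE8e, A4G was on 5839 of 6649, 5547 of 6247 and 6509 of 7263 reads. With SpG-ABE8e it was on 1697 of 2541, 1586 of 2370 and 1814 of 2626 reads. Whether the differences follow target editing was not tested.

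On the same read, cytosine changes were set against the target A-to-G in the 54 edited samples with at least 100 reads of each class. C-to-T was on 0.479 ± 0.608% of target-edited reads and 0.149 ± 0.137% of the other reads (SD, n = 54). The paired difference of 0.330 points, positive in 38 samples and negative in 13, had a permutation p of 8.0e-05 (adjusted p = 0.000413). C-to-G was on 0.197% and 0.109% (permutation p = 0.0110, adjusted p = 0.0235 over 15 tests and 0.0548 over the 45 link tests). This call was lost without sgRNA7 or sgRNA1, without replicates 2 or 3 and with alleles of at least 0.2% only. C-to-A was on 0.197% and 0.169% (permutation p = 0.262). Guanine changes gave no such excess, with a G-to-A difference of -0.00757 points (permutation p = 0.675) and a G-to-T difference of -0.0837 points (permutation p = 0.00159).

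By deaminase, the C-to-T difference was 0.411 points in 30 ABE8e samples, positive in 24 (permutation p = 1.0e-05, adjusted p = 0.000450 over 45 link tests). In 24 ABEmax samples it was 0.228 points, positive in 14 (permutation p = 0.162). The ABEmax value joined 0.673 points with SpCas-ABEmax, positive in 7 of 9 samples (exact p = 0.0664), and -0.0384 points with SpG-ABEmax, positive in 7 of 15 (permutation p = 0.551). With SpCas-ABE8e and SpG-ABE8e the difference was 0.610 and 0.326 points, positive in 7 of 9 and 17 of 21 samples. The test of the difference between deaminases gave p = 0.109 by permutation within sgRNAs and Cas9 variants, so a difference was not shown. By sgRNA, the C-to-T difference was 0.799 points for sgRNA7 (11 of 12 samples, permutation p = 0.00100, adjusted p = 0.00900) and 0.589 points for sgRNA1 (10 of 12 samples, permutation p = 0.00198, adjusted p = 0.0148). For sgRNA9 it was 0.176 points in 6 of 6 samples (exact p = 0.0312, the smallest that 6 pairs allow, adjusted p = 0.128), and for sgRNA6 it was -0.0423 points (permutation p = 0.290). It was 0.0194 points for sgRNA3, positive in 3 of 6 samples (exact p = 0.938), 0.0578 points for sgRNA2 in 3 of 3 samples (exact p = 0.250, the smallest that 3 pairs allow), and 0.110 points for sgRNA5, positive in 1 of 3 (exact p = 1.0). The sequencing primers listed by the study held a stretch of random bases, but the counts used here are of reads. The intervals and limits given therefore cover counting error only.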

How the data were processed

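Genomic DNA was amplified around each splice site by a two-step PCR and sequenced, and the authors aligned the reads to the amplicon with CRISPResso2 (version, filters and genome build not given in the sources used here). They deposited a table per sample that lists alleles in a 40-base window, each with its read count and its percent of reads. Here the percent was recomputed from the deposited read count. Windows of sgRNA1, 3, 6, 7 and 9 were reverse-complemented, gaps in the reference were dropped, and window bases 11 to 30 were numbered 1 to 20. Samples were grouped by their labels, in which ABE was read as ABEmax; the replicates are independent experiments according to the study. Members and lists were chosen with earlier results of these data known.

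Shares were compared by two-sided permutation tests over samples with 100000 resamples within sgRNAs (scipy 1.17.1, numpy 2.4.6), exact below 10 pairs, with Benjamini-Hochberg adjustment. Single substitutions with at least 10 reads were tested on counts with edgeR 4.0.16 (quasi-likelihood, 1 common dispersion per sgRNA, library size equal to reads), adjusted over all window substitutions and all comparisons of a kind, and with DESeq2 1.42.0 as an alternative. Called means an adjusted p below 0.05. In data simulated for these comparisons, 82% of 8-fold and 37% of 4-fold changes were called and 0.676% of unchanged values. The simulation used a dispersion set at 0.05, not estimated from these data. Its base rates were means over edited and control libraries together, so the shares called may not hold for changes that are rare in controls. Named changes were those called higher than controls or between deaminases, T-preceded cytosines at positions 3 to 9, and the highest of each sgRNA in edited groups and in controls. Alternatives varied gaps, rare alleles, reads with many other changes, scaling, low counts, replicates and sgRNAs.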

Additional observations from a re-analysis of the deposited data

Results flagged for a closer look

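The effect of the deaminase on summed C-to-T differed in direction between 2 sgRNAs used with SpCas. ABE8e minus ABEmax was -0.630 points for sgRNA1 and 1.36 points for sgRNA7, and in each sgRNA the 3 samples of one deaminase lay apart from the 3 of the other. The difference of -1.992 points had an exact two-sided permutation p of 0.00500, the smallest that 400 arrangements allow, and an adjusted p of 0.120 over 24 such pairs of sgRNAs, so it failed the correction. The sgRNA1 libraries were shallow, 599 to 3644 reads with the SpCas editors, against 5620 to 7263 for sgRNA7.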

How the results depend on the processing

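Of 219 recomputed values of the permutation tests, 174 kept their direction and their side of the threshold, and the same-read excess of C-to-T on target-edited reads (0.196 to 0.436 points) kept both under all alternatives tried. An adjusted p below 0.05 was lost in at least 1 alternative for 11 of the 17 changes called higher than controls. Differences below are in percentage points, and where a call moved the cause was not tested.

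With alleles of at least 0.2% only, C-to-T against controls was 0.1082, C-to-G 0.01974, C-to-T with ABE8e over ABEmax 0.1658, C-to-A 0, C-to-G on target-edited reads 0.03927 and the T-preceded difference -0.002182. Without sgRNA1, C-to-T against controls was 0.1523, C-to-G with ABE8e 0.07841 (now called), C-to-A with ABE8e 0.04043 and C-to-G on target-edited reads 0.06796. Without sgRNA2, C-to-T against controls was 0.1574 and C-to-A with ABE8e 0.04396. Without sgRNA3, C-to-T against controls was 0.1217 and with ABE8e 0.1912. Without sgRNA6, all cytosine changes against controls differed by 0.04335, C-to-G with SpCas by 0.1201 (now called) and the T-preceded difference was -0.0241. Without sgRNA7, all cytosine changes differed by 0.08134, C-to-T against controls by 0.0779, C-to-A by -0.07037, C-to-T with ABE8e by -0.04848, C-to-G with ABE8e by -0.02313, C-to-T with SpCas by 0.195 and C-to-G on target-edited reads by 0.05149. Without sgRNA9, C-to-T against controls was 0.1462, C-to-T with ABE8e 0.2026 and C-to-A with ABE8e 0.05098. Without sgRNA6 and sgRNA7 (chosen after seeing the data), all cytosine changes differed by 0.2839, C-to-A by 0.1071, positions 3 to 9 by 0.03981 and the T-preceded difference by -0.0241.

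Leaving out each replicate number in turn gave 0.135 to 0.1551 for C-to-T against controls, 0.184 to 0.1976 for C-to-T and 0.04731 to 0.06722 for C-to-A with ABE8e, -0.002937 to 0.1366 for C-to-G with SpCas and 0.07729 to 0.09805 for C-to-G on target-edited reads. Calls then numbered 6 to 13 higher and 15 to 18 lower than controls, and 3 to 6 higher and 0 to 2 lower with ABE8e. DESeq2 called 9 higher and 15 lower than controls, and 4 higher and 0 lower with ABE8e.

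Replicate numbers showed no sign of pairing the samples: deviations of same-numbered samples correlated at -0.0429 on average over 122 pairs, and at 0.0172 over 244 pairs of different numbers. Such means cannot exclude pairing, because many of the values rest on few reads. The deposited replicate numbers of sgRNA2 are not uniform, and those of the sample titles were used. With the replicate number as a block, C-to-T was 0.1611 against controls (adjusted p = 0.0530) and 0.1901 with ABE8e (adjusted p = 0.0887), no other permutation call changed, and edgeR called 13 higher and 21 lower than controls.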
